A study of Mus musculus with 4 samples.

Results

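The genes described here make up the machinery of DNA replication and the entry into S phase. They were chosen by name, as 43 gene symbols, and all 43 are present among the 55339 genes of the deposited expression table. RNA with poly(A) tails was sequenced from leukemia cells of the bone marrow of C57BL/6 mice. The 2 groups were WT (2 libraries, replicates 4 and 5) and YBX1-/- (2 libraries, replicates 1 and 3, titled cKO), here called knockout. Titles place knockout replicate 3 in RNA-seq2 and the other libraries in RNA-seq1, with no further word on what the numbers mean. Both groups are leukemia cells, and the oncogene behind the leukemia, the Cre driver, the age of the mice and the number of animals behind a library are not given in the sources used here. P-values therefore measure only the spread between these libraries, which may be technical.

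Replication begins when the origin recognition complex (ORC) marks start sites on DNA and, with CDC6 and CDT1, loads the ring-shaped MCM helicase. In S phase CDC45 and the GINS complex join the MCM ring to form the active helicase, and polymerase alpha with primase, the polymerases delta and epsilon, the sliding clamp PCNA and its loader RFC copy the strands. Cyclin E and E2F transcription factors control the start of this programme, and E2F factors bind the promoters of many of its genes. In bone marrow, dividing progenitors carry high levels of these transcripts and maturing neutrophils lose them as they stop dividing.

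Values are normalized log2 expression as the authors deposited them. Whether they were divided by gene length is not given in the sources used here, so levels were compared between libraries and not between genes. All 43 genes passed the filter on low values (2 or more libraries with a log2 value of 0 or higher), as did 17303 genes in all. Ybx1, the gene targeted, was at 19.70 and 10.002 in WT replicates 4 and 5 and at 7.29 and 8.33 in knockout replicates 1 and 3. It was thus lower in both knockout libraries, by 2.19 log2 or 4.57-fold from WT replicate 5, which limma did not call (adjusted p = 0.480 without WT replicate 4 and 0.826 with all libraries). The authors' deposited table called Ybx1 lower (log2 fold change -9.50, adjusted p = 0.000306). Read depth is unknown, because the table holds normalized values only.

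WT replicate 4 set the replication genes apart from the other 3 libraries in a way that touches every comparison below. It lay below WT replicate 5 in 38 of 43 members (88.4%), with a median difference of -1.78 log2. The same held for 46.0% of all tested genes and for 73.5% of the 9144 genes with at least log2 5 in 2 libraries. Plotted against the mean of the other 3 libraries, its values fell on separate narrow bands. Of 9200 genes of moderate to high level, 5377 lay on the lowest band, within 0.9 log2 of the curve through it, and 0 of the 9200 lay between 0.5 and 1.3 log2 above that curve. On the lowest band the SD of WT replicate 4 about the curve was 0.118 log2. Curves of the same form, drawn for each other library from the mean of the remaining libraries without WT replicate 4, left SDs of 0.660 to 0.826 in the same genes, which were picked by their place in WT replicate 4. Among the replication genes 21 (48.8%) were on the lowest band, 10 (23.3%) on the second band and 12 (27.9%) above both. The shares of the 9200 genes were 58.4%, 16.2% and 25.3%. E2f1, Fen1 and Rrm2 lay far above the bands, at 15.68, 13.51 and 11.34. Whether values on the bands are measured levels of each gene was not tested, and every value given with both WT libraries rests on them. The comparison with WT replicate 5 alone is therefore given beside that with both WT libraries for the main counts. It rests on a single WT library, and its standard errors assume that WT cells vary as the 2 knockout libraries do.

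**Figure D1:**
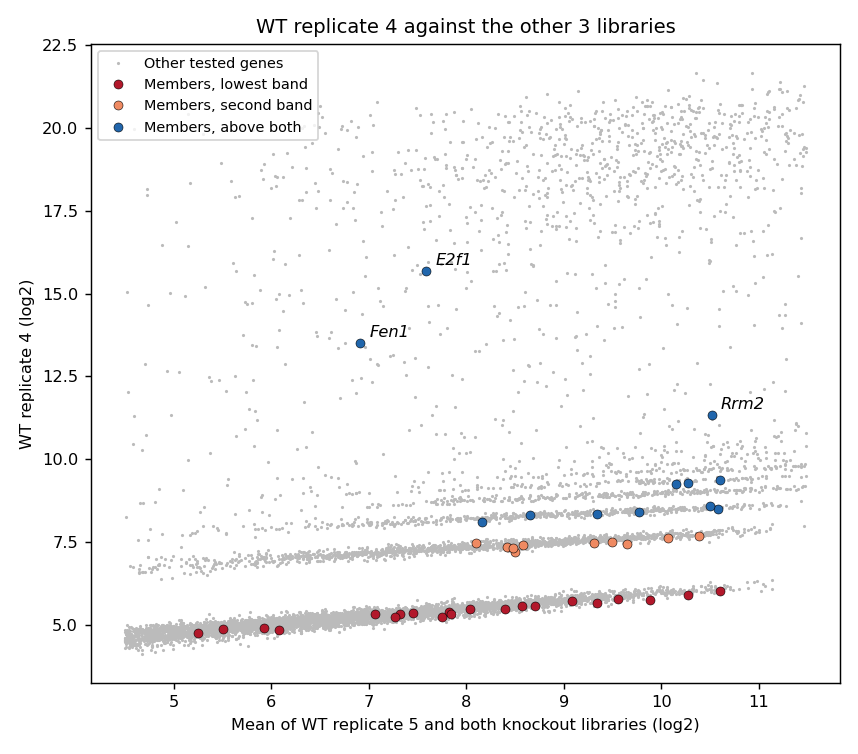
Expression in WT replicate 4 (y axis, log2) against the mean of WT replicate 5 and both knockout libraries (x axis, log2). Each grey point is a tested gene and each coloured point a replication gene. The 21 members on the lowest band and the 10 on the second follow narrow curves, while E2f1 at 15.68, Fen1 at 13.51 and Rrm2 at 11.34 lie above them.

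Most replication genes were somewhat higher in knockout cells than in WT cells, and none of these differences passed the test. Both knockout values lay above both WT values in 27 of 43 members (62.8%) and below them in 1, E2f1. The background was 17.3% of all tested genes above and 18.8% below, and 30.8% above and 9.3% below among the genes with at least log2 5 in 2 libraries. Except in Orc1 and Rfc3, WT replicate 5 held the higher WT value in the 27 members above. Lying above both WT libraries thus mostly means lying above WT replicate 5, here and in the roles below. Against WT replicate 5 alone, both knockout values lay above it in 28 members (65.1%) and below it in 6 (14.0%), with 9 on either side. Here the background was 41.8% above and 33.4% below over all tested genes, and 39.5% and 35.2% among the genes with at least log2 5 in 2 libraries. The counts by role below rest on few genes each, and no role was tested as a set. On the lowest band of WT replicate 4, 15 of 21 members (71.4%) lay above WT replicate 5, beside 38.8% of all genes of that band.

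The size of the difference was small. The median over the 43 members was 1.10 log2 with both WT libraries, but 0.33 from WT replicate 5 alone. The corresponding medians over all tested genes were -0.093 and 0.074. By count of genes, each knockout library showed the direction. Replicate 1 was above WT replicate 5 in 36 members (83.7%, beside 57.7% of all genes). Replicate 3 was above it in 29 (67.4%, beside 50.7%). The median differences of replicates 1 and 3 from WT replicate 5 were 0.33 and 0.15 log2 (0.0057 and 0.016 over all tested genes). Between the knockout libraries the median absolute difference of the members was 0.24 log2, and both comparisons share WT replicate 5. Both knockout libraries were over 0.5 log2 above WT replicate 5 in 13 members (30.2%, beside 16.0% of all genes) and over 0.5 log2 below it in 1 (2.33%, beside 16.8% of all genes), E2f1. Within the libraries titled RNA-seq1, where knockout replicate 1 is the only knockout library, the direction was thus the same.

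**Figure D2:**
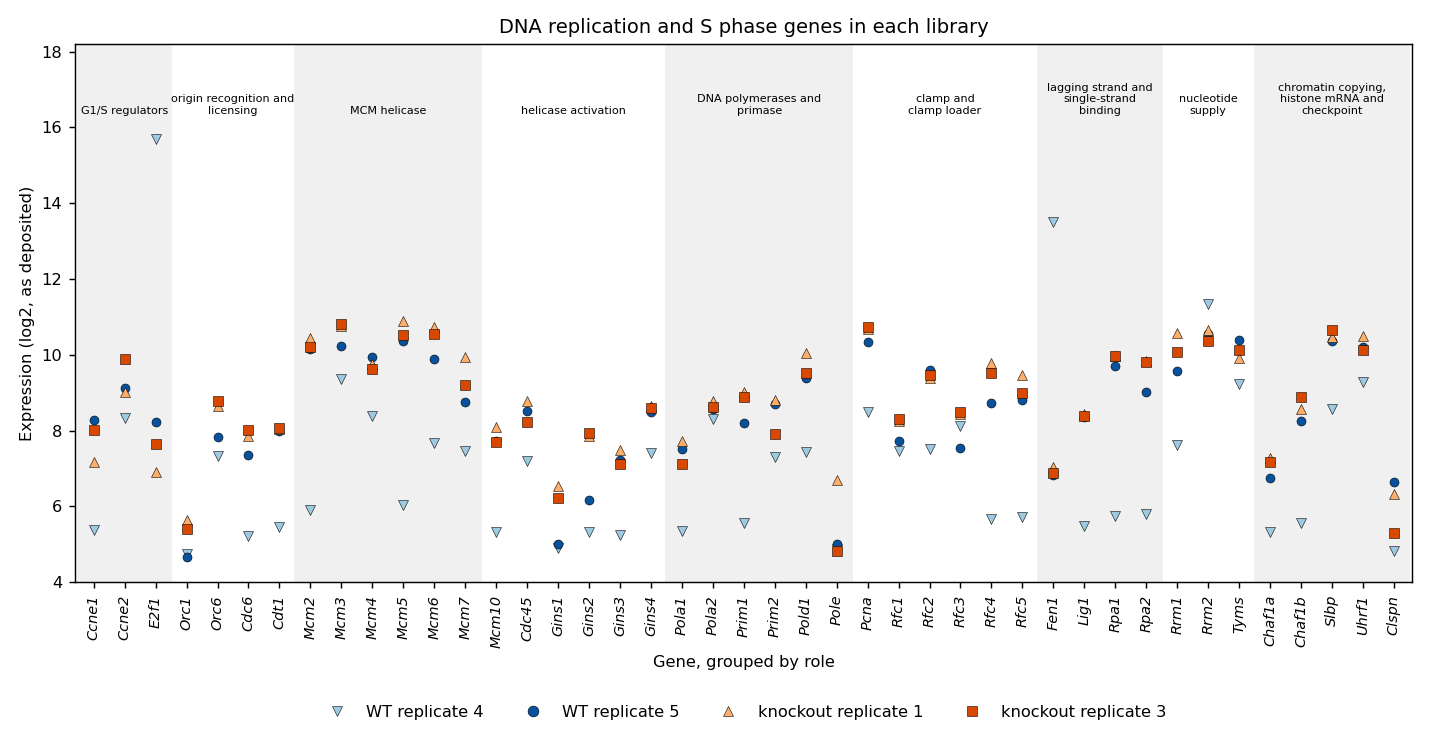
Deposited expression (y axis, log2) of each of the 43 genes (x axis, grouped by role) in the 4 libraries, with 1 point for each library. WT replicate 4 (pale triangles) lies below WT replicate 5 in 38 genes, and the knockout points lie above both WT points in 27. Whether levels were divided by gene length is not given, and they are compared within a gene only.

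Limma called 0 of 43 members and 0 of 17303 genes (0%) at an adjusted p under 0.05 with all libraries, and 1 member, Gins2, had an unadjusted p under 0.05, where the background was 3.76%. Without WT replicate 4 it again called 0 genes (0%). There 6 members (14.0%) had an unadjusted p under 0.05, beside 10.4% of all genes: Orc6, Mcm6, Gins2, Rfc3, Rfc4 and Rpa2, each higher in knockout. Without WT replicate 5, so against WT replicate 4 alone, limma called 23 members higher and 2 lower, where 14.2% of all genes were called higher and 14.5% lower. Of those 23, 13 were on the lowest band and 6 on the second, so these calls rest on the library whose values follow the bands.

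The G1/S regulators were the one role in which no member lay above both WT libraries. E2f1 (minus strand of chromosome 2, from 154559407 to 154569892 in GRCm38), an E2F factor that activates S phase genes, was at 15.68 and 8.24 in WT and at 6.90 and 7.64 in knockout. Both knockout values were lower than both WT values, and the mean of 7.27 ± 0.52 (SD, n = 2) was 1.96-fold below WT replicate 5 (-0.97 log2, SE 0.47, limma adjusted p = 0.578 without WT replicate 4). Ccne1, which encodes cyclin E1, was at 5.37 and 8.28 in WT and at 7.17 and 8.01 in knockout. Its knockout values lay between the 2 WT values. Ccne2, which encodes cyclin E2, was at 8.33 and 9.12 in WT and at 9.01 and 9.90 in knockout, so the groups overlapped.

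All 4 genes of origin recognition and licensing lay above both WT libraries in both knockout libraries. So did 30.8% of all genes with at least log2 5 in 2 libraries. Orc6 (plus strand of chromosome 8, from 85299632 to 85308278 in GRCm38), an ORC subunit, was at 7.34 and 7.83 in WT and at 8.64 and 8.77 in knockout. The knockout mean of 8.71 ± 0.093 (SD, n = 2) was 1.83-fold above WT replicate 5 (0.87 log2, SE 0.22, limma adjusted p = 0.477 without WT replicate 4). Orc1, an ATP-binding ORC subunit, was at 4.74 and 4.67 in WT and at 5.66 and 5.42 in knockout. Both WT values of Orc1 were low and close together, but that of replicate 4 is on the lowest band. Cdc6, the loader of the MCM ring, was at 5.23 and 7.35 in WT and at 7.87 and 8.03 in knockout. Cdt1, the partner of CDC6 in loading, differed from WT replicate 5 by 0.062 log2 only.

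Among the 6 subunits of the MCM helicase ring, 5 lay above both WT libraries and Mcm4 did not. In genes with at least log2 5 in 2 libraries, the share above both was 30.8%. Mcm6 (minus strand of chromosome 1, from 128331590 to 128359664 in GRCm38) was at 7.68 and 9.88 in WT and at 10.72 and 10.56 in knockout, where the mean of 10.64 ± 0.12 (SD, n = 2) was 1.70-fold above WT replicate 5 (0.76 log2, SE 0.20, limma adjusted p = 0.477 without WT replicate 4). Mcm7 was at 7.47 and 8.77 in WT and at 9.94 and 9.21 in knockout. Mcm3 was at 9.36 and 10.23 in WT and at 10.77 and 10.81 in knockout. In all 3 genes the groups did not overlap. Mcm2 and Mcm5 were 0.17 and 0.33 log2 above WT replicate 5. In WT replicate 4 both were on the lowest band. Mcm4 was at 9.75 and 9.62 in knockout, between WT values of 8.39 and 9.95.

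E2F factors bind promoters through sites such as TTTCGCGC and TTTGGCGC, and 4 members whose promoter holds such a site are printed as examples. The sequences are from RefSeq promoters (GRCm38.p6), read 5′ to 3′ on the strand of the gene, with the matches on either strand in capitals. Mcm5 and Mcm6 lay above both WT libraries, and Uhrf1 and Pola1 did not. In Mcm5 and Mcm6 a match to each motif overlaps on opposite strands, so that both share 1 run of capitals.
Mcm6: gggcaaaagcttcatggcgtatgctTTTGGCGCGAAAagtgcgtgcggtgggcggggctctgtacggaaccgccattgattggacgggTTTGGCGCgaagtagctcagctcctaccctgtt
Mcm5: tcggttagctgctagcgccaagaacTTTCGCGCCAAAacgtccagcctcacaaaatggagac
Uhrf1: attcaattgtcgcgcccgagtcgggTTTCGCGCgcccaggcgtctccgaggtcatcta
Pola1: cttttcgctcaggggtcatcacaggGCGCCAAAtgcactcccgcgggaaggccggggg

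These stretches are chr1:128359720-128359840 on the minus strand for Mcm6, chr8:75109331-75109392 on the plus strand for Mcm5, chr17:56304103-56304160 on the plus strand for Uhrf1 and chrX:93632261-93632318 on the minus strand for Pola1. They lie outside annotated exons, but that of Uhrf1 is within the span of the Uhrf1 gene in GENCODE, from 56303321 to 56323486. Of the 43 members, 35 had a promoter entry. In the 250 bases before the start, on both strands, TTTCGCGC was found in 5 of the 35 members (14.3%) and in 0.256% of all 32851 promoters, and TTTGGCGC in 3 (8.57%) and in 0.417%. At least 1 of the 2 motifs was in 6 members, which besides the 4 printed are Orc1 and Rfc3. Of these 6, 4 lay above WT replicate 5 in both knockout libraries: Mcm5, Mcm6, Orc1 and Rfc3. The CCAAT box, bound by NF-Y and common in cell cycle promoters, was in 23 members (65.7%) and in 33.8% of all promoters. TTTGAA, the core of the CHR element of late cell cycle genes, was in 4 members (11.4%) and in 16.0% of all promoters. Of the 23 members with CCAAT, 16 lay above WT replicate 5 in both knockout libraries, as did 25 of all 35. A match describes the letters only and is not a measured binding site.

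The genes that turn the loaded ring into an active helicase held the widest differences above WT replicate 5, in 2 GINS subunits. Gins2 (minus strand of chromosome 8, from 120578633 to 120589304 in GRCm38) was at 5.33 and 6.18 in WT and at 7.85 and 7.94 in knockout. The groups did not overlap, and the knockout mean of 7.90 ± 0.064 (SD, n = 2) was 3.28-fold above WT replicate 5 (1.71 log2, SE 0.26). Its adjusted p by limma was 0.466 without WT replicate 4 and 0.826 with it. Exons of Gse1 on the other strand overlap Gins2 by 2758 bases at the longest, and without strand the reads of the 2 genes cannot be told apart. Gse1 itself was at 4.35 and 2.24 in WT and at 2.08 and 4.36 in knockout, so its groups overlapped. Gins1 (plus strand of chromosome 2, from 150905400 to 150931280 in GRCm38) was at 4.89 and 5.01 in WT and at 6.55 and 6.23 in knockout. Its knockout mean of 6.39 ± 0.23 (SD, n = 2) was 2.59-fold above WT replicate 5 (1.37 log2, SE 0.42, limma adjusted p = 0.490 without WT replicate 4).

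The other subunits of the GINS complex did not show a difference of that size. Gins4 was at 7.41 and 8.50 in WT and at 8.65 and 8.60 in knockout, 0.13 log2 above WT replicate 5. Gins3 had knockout values of 7.48 and 7.11 on either side of WT replicate 5 at 7.23. Cdc45, the helicase cofactor, had knockout values of 8.77 and 8.22 around 8.51, and Mcm10, which helps to activate the helicase, 8.10 and 7.70 around 7.73.

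Of 6 genes of the polymerases and primase, 3 lay above both WT libraries and 3 overlapped with them. Of all genes with at least log2 5 in 2 libraries, 30.8% lay above both. Prim1, the catalytic primase subunit, was at 5.56 and 8.21 in WT and at 9.03 and 8.88 in knockout, 1.67-fold above WT replicate 5 (0.74 log2, SE 0.22, limma adjusted p = 0.482 without WT replicate 4). Pold1, the catalytic subunit of polymerase delta, was at 7.45 and 9.38 in WT and at 10.04 and 9.52 in knockout. Pola2, a subunit of polymerase alpha, was at 8.31 and 8.58 in WT and at 8.78 and 8.62 in knockout, a gap of 0.038 log2. Prim2, the partner of Prim1, lay at 8.82 and 7.90 in knockout around WT replicate 5 at 8.71. Pola1 lay at 7.73 and 7.11 around 7.52. Pole, the catalytic subunit of polymerase epsilon, was at 6.69 in knockout replicate 1 and 4.83 in replicate 3, so the knockout libraries themselves disagreed.

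The clamp and its loader lay above both WT libraries in 5 of 6 genes, beside 30.8% of genes with at least log2 5 in 2 libraries. Pcna was at 8.48 and 10.33 in WT and at 10.68 and 10.74 in knockout, above WT replicate 5 by little (0.38 log2, SE 0.18, limma adjusted p = 0.569 without WT replicate 4). Rfc4 (minus strand of chromosome 16, from 23113943 to 23127737 in GRCm38), a small subunit of the loader, was at 5.67 and 8.74 in WT and at 9.77 and 9.53 in knockout, 1.88-fold above WT replicate 5 (0.91 log2, SE 0.23). Rfc3 (minus strand of chromosome 5, from 151642756 to 151651242 in GRCm38), another small subunit, was at 8.11 and 7.55 in WT and at 8.44 and 8.50 in knockout. Rfc3 and Orc1 are the members above both WT libraries in which WT replicate 4 lay above WT replicate 5. Rfc1, the large subunit, was at 7.46 and 7.74 in WT and at 8.25 and 8.32 in knockout. Rfc5 was 0.43 log2 above WT replicate 5. Rfc2 was at 9.38 and 9.48 in knockout, below WT replicate 5 at 9.61.

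On the lagging strand and among the single-strand binding proteins, all 4 genes lay above WT replicate 5, by 0.042 to 0.80 log2. So did 39.5% of all genes with at least log2 5 in 2 libraries, by any size. Rpa2 (plus strand of chromosome 4, from 132768332 to 132778752 in GRCm38), a subunit of the single-strand binding protein RPA, was at 5.79 and 9.03 in WT and at 9.84 and 9.81 in knockout. The knockout mean of 9.83 ± 0.023 (SD, n = 2) was 1.74-fold above WT replicate 5 (0.80 log2, SE 0.18, limma adjusted p = 0.477 without WT replicate 4). Rpa1, the large RPA subunit, was at 5.76 and 9.71 in WT and at 9.97 in both knockout libraries. Lig1, the ligase that joins Okazaki fragments, was 0.042 log2 above WT replicate 5, at 8.44 and 8.38 against 8.37. Fen1 (minus strand of chromosome 19, from 10199132 to 10204169 in GRCm38), the nuclease that trims those fragments, was at 7.03 and 6.89 in knockout. Its WT values of 13.51 in replicate 4 and 6.83 in replicate 5 lay on both sides, so the direction of its difference is set by WT replicate 4 (-3.21 log2 with it and 0.13 without it).

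Nucleotide supply was split. Rrm1, the large subunit of ribonucleotide reductase, was at 7.62 and 9.56 in WT and at 10.58 and 10.08 in knockout, 1.70-fold above WT replicate 5 (0.77 log2, SE 0.33, limma adjusted p = 0.548 without WT replicate 4). Rrm2, the small subunit, whose protein accumulates in S phase, was at 11.34 and 10.55 in WT and at 10.65 and 10.36 in knockout. The groups overlapped, unlike those of its partner Rrm1, and a difference between the 2 genes was not tested. Tyms, thymidylate synthase, was at 9.93 and 10.12 in knockout, between WT values of 9.24 and 10.40.

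Of the 5 genes of chromatin copying, histone mRNA and the replication checkpoint, 3 lay above both WT libraries. Of all genes with at least log2 5 in 2 libraries, 30.8% did. Chaf1a and Chaf1b, subunits of the CAF-1 histone chaperone, were both 0.48 log2 above WT replicate 5. Chaf1a was at 5.33 and 6.74 in WT and at 7.27 and 7.17 in knockout. Chaf1b was at 5.57 and 8.25 in WT and at 8.58 and 8.89 in knockout. Slbp, which binds the stem-loop of histone mRNAs, was at 8.58 and 10.36 in WT and at 10.48 and 10.66 in knockout. Uhrf1, a partner of the maintenance methyltransferase DNMT1, lay at 10.51 and 10.12 around WT replicate 5 at 10.20. Clspn, which encodes the checkpoint mediator claspin, was at 4.83 and 6.64 in WT and at 6.32 and 5.30 in knockout, so its groups overlapped.

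**Figure D3:**
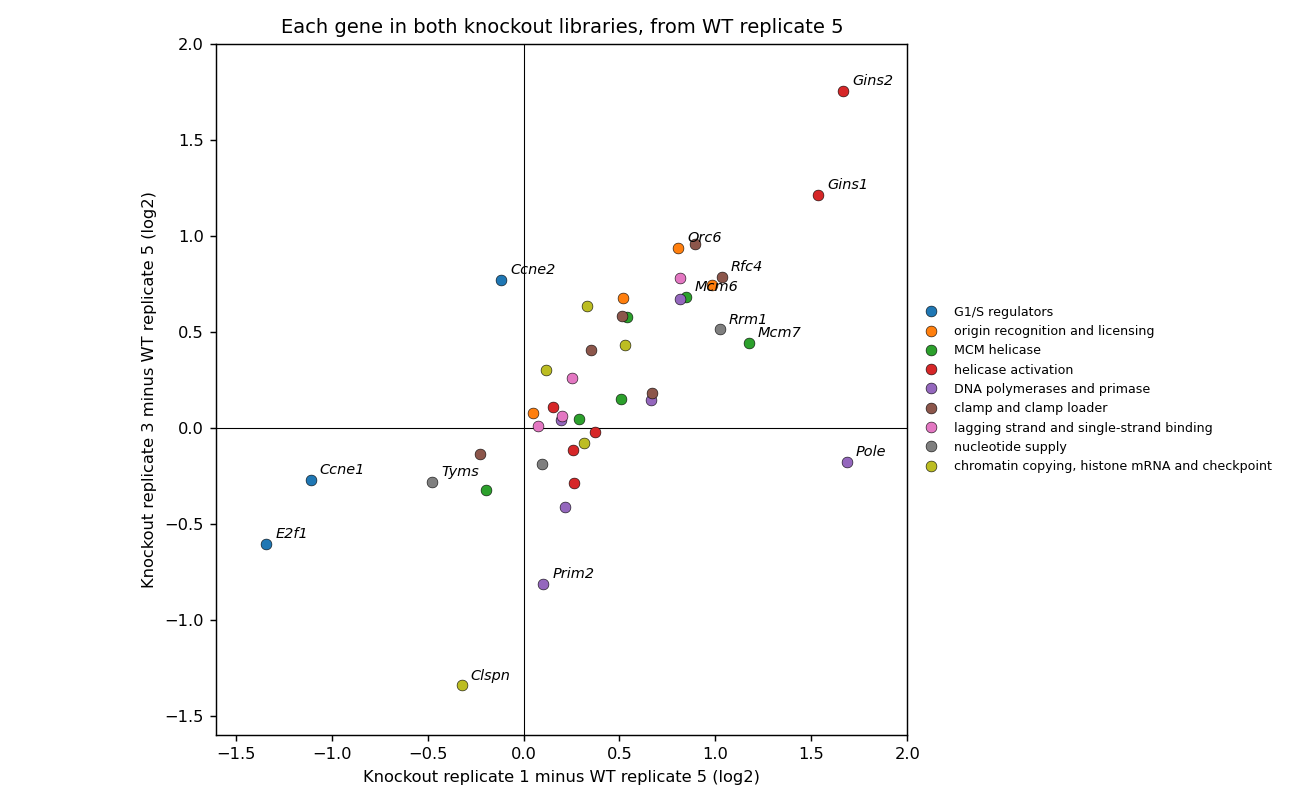
Difference of knockout replicate 1 (x axis) and of knockout replicate 3 (y axis) from WT replicate 5, in log2, with 1 point for each of the 43 genes, coloured by role. Both axes share WT replicate 5, so the points spread along the diagonal whatever the genotype. Both differences are above 0 in 28 genes and below 0 in 6, with Gins2 and Gins1 at the upper right, E2f1 at the lower left and Pole high in knockout replicate 1 only.

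Of the 43 members, 38 had in the authors' deposited table a positive log2 fold change (read as knockout over WT, since it follows the columns in most genes) and 5 a negative one. Over all tested genes 6927 were positive and 10258 negative there, and among the genes with at least log2 5 in 2 libraries 5660 were positive and 3484 negative. That table called 1 member lower at an adjusted p under 0.05, Fen1, with a log2 fold change of -5.06 (adjusted p = 0.021), and 0 higher. Over the 17185 tested genes with a fold change it called 3.96% lower and 0.157% higher. The only lower call thus falls on a gene whose value in WT replicate 4 was far above the other libraries. Gins2 had the largest positive fold change of the members in the authors' deposited table, 2.53, with an adjusted p of 0.114. In 4 members the sign was opposite to the difference of the sample columns, Ccne2, Rfc1, Rrm2 and Slbp, as in 15.7% of the genes. Rfc1 and Slbp stand at -5.64 and -3.76 in the authors' deposited table, although both their knockout values were above both WT values. E2f1, Rfc1 and Lig1 carry a p-value of exactly 1 in the authors' deposited table, as do 1549 of the 17185 genes.

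A wider list of 60 replication genes was compared in the same way. Both knockout values lay above both WT values in 25 (41.7%) and below in 3, where the background was 17.3% above and 18.8% below over all tested genes, and 30.8% and 9.3% among the genes with at least log2 5 in 2 libraries. Against WT replicate 5 alone, 33 (55.0%) lay above and 13 (21.7%) below, beside 41.8% and 33.4% of all tested genes. The median difference was 0.79 log2 with both WT libraries and 0.37 from WT replicate 5. Limma called 0 of the 60, with 1 (1.67%, beside 3.76% of all genes) at an unadjusted p under 0.05 with all libraries. Without WT replicate 4 it again called 0, and 4 (6.67%, beside 10.4% of all genes) had an unadjusted p under 0.05. The 1 gene with all libraries was Rbl1, which encodes the pocket protein p107, at 5.24 and 5.39 in WT and at 7.86 and 6.93 in knockout. Chek1, the checkpoint kinase CHK1, was at 4.93 and 5.55 in WT and at 7.04 and 6.63 in knockout. Ticrr, which helps origins to fire, was at 4.64 and 4.17 in WT and at 5.98 and 5.30 in knockout. In each of these 3 genes the groups did not overlap.

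Gaps between the groups were smaller in Orc3, Dnmt1 and Rbbp4 than in Ticrr. Some members of the wider list that are not named here had wider gaps than Ticrr. The ORC subunit gene Orc3 was at 8.25 and 7.83 in WT and at 8.80 and 8.76 in knockout. Dnmt1, the maintenance DNA methyltransferase, was at 7.33 and 7.46 in WT and at 8.63 and 7.95 in knockout. Rbbp4, a histone-binding subunit of CAF-1, was at 9.72 and 10.20 in WT and at 10.72 and 10.56 in knockout. The authors' deposited table called Supt16, a subunit of the histone chaperone FACT, lower, with a log2 fold change of -7.92. Supt16 was at 18.84 in WT replicate 4 and at 10.06 in WT replicate 5. Its knockout values, 10.19 and 9.58, lay on either side of WT replicate 5.

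**Figure D4:**
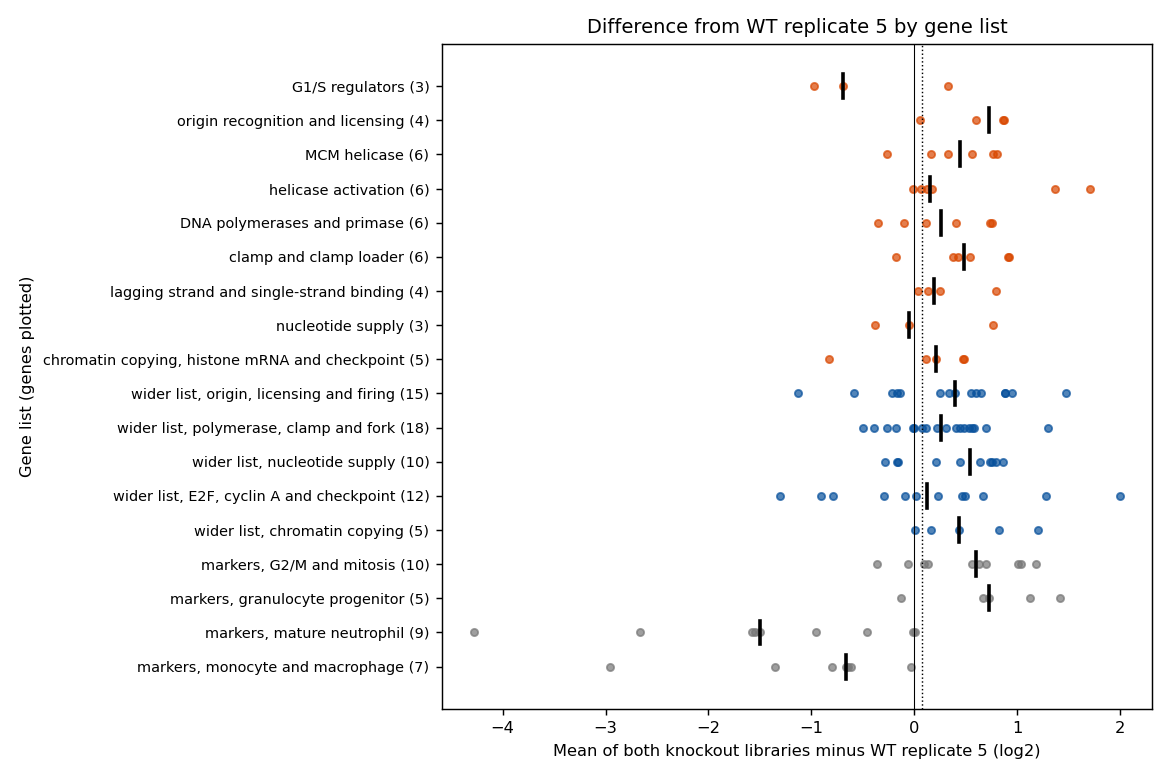
Mean of both knockout libraries minus WT replicate 5 (x axis, log2) for each gene of the 9 roles (orange), of the wider replication list (blue) and of 4 marker lists (grey). The black bar is the median of a list, the number of genes is in parentheses and the dotted line is the median over all tested genes, 0.074. Origin recognition and licensing has a median of 0.73 and the G1/S regulators one of -0.69, and mature neutrophil markers have a median of -1.50.

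Markers of cell state and of other cells also differed between the libraries, and none of these lists was tested. The background for the counts below is that both knockout values lay above WT replicate 5 in 41.8% of all tested genes and below it in 33.4%. Of 10 markers of G2/M and mitosis, 6 lay above WT replicate 5 in both knockout libraries and 0 below. Their summed level was at log2 20.71 and 12.64 in WT and 13.56 and 12.49 in knockout, so knockout replicate 3 lay below WT replicate 5. Of 9 markers of mature neutrophils, 7 lay below WT replicate 5 in both knockout libraries and 0 above, with summed levels of 22.06 and 16.44 in WT and 14.57 and 14.74 in knockout. Of 7 monocyte and macrophage markers 6 lay below and 0 above, with sums of 10.05 and 12.47 in WT and 12.28 and 12.06 in knockout. Of 5 markers of granulocyte progenitors, 4 lay above WT replicate 5 in both knockout libraries and 0 below, with summed levels of 24.11 and 16.26 in WT and 16.92 and 16.95 in knockout.

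The T cell markers Cd3e, Cd3g and Trbc2 were listed at 0 in all libraries, and Cd3d was at 2.59 and 0.54 in WT and at 0.55 and 1.01 in knockout. A log2 value of 0 is not the lowest value of the table. The summed levels outside WT replicate 4 were 2.52 to 4.73 for 8 erythroid markers, 1.55 to 1.80 for 6 T and NK markers and 7.03 to 7.43 for 6 B lineage markers, where Cd79b made up nearly all. Endothelial and stromal markers summed to 6.15 to 6.64, with Lepr at 0. Pecam1, at 6.10 to 6.59 in the same libraries, made up most of that sum. The part of these shifts in the replication genes was not tested, and in bulk RNA fewer cells of a type and less RNA per cell cannot be told apart.

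Exons of 14 members overlap a gene on the opposite strand, among them Gins2, Orc6, Rfc4, Mcm7 and Fen1, and the strand setting of the authors' counting is not given in the sources used here. Among the 29 members without such an overlap, both knockout values lay above WT replicate 5 in 18 (62.1%) and below it in 5. Over all tested genes the shares were 41.8% above and 33.4% below. They were 39.5% and 35.2% among the genes with at least log2 5 in 2 libraries. The 43 genes lie on 14 chromosomes, with 8 on chromosome 5 as the most.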

How the data were processed

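Expression was measured by RNA-seq in 2 WT and 2 knockout libraries. The authors deposited 1 table of log2 expression values per gene symbol, and how these were normalized is not given in the sources used here. It also holds the authors' log2 fold change, p-value and adjusted p-value per gene. Tools listed in the submitters' processing notes are DESeq2, featureCounts, HISAT2 2.1.0 and CASAVA, and the build listed is GRCm38, with no roles. Read counts were not used here, so depth is unknown.

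Genes with a log2 value of at least 0 in at least 2 libraries were tested with limma 3.58.1 (R 4.3.3) with a mean-variance trend. The test was first run on simulated data, where every library had the spread of the knockout libraries. That run does not cover the bands of WT replicate 4. Benjamini-Hochberg adjustment ran over all 17303 genes, with calls at an adjusted p under 0.05. Log2 differences subtract WT from knockout. The 43 members and all lists were chosen with earlier results of these data known. Members given in full are, for each role, up to 3 whose groups did not overlap (widest gap first), and any called in the authors' deposited table. The wider list was split by role, and from each part the text gives called genes, or with none the 2 with the widest gap. The bands of WT replicate 4, and the members and genes given beyond this rule, were chosen after the values were seen. Gene positions are from GENCODE M21 (GRCm38), where all 43 symbols matched. Some genes of the wider list and the marker lists are not reported here by name, although the counts and sums of those lists include them.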

Additional observations from a re-analysis of the deposited data

How the results depend on the processing

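No paired analysis was possible because WT replicates 4 and 5 and knockout replicates 1 and 3 share no number. Leaving out 1 library at a time moved the genes called by limma between 0 and 4960 and the members called between 0 and 25, both highest without WT replicate 5. Without knockout replicate 1 limma called 26 genes and without knockout replicate 3 it called 88, with 0 members in either. The count of members below both WT libraries ranged from 1 to 6, the median member difference from 0.33 to 1.99 log2 and the Ybx1 difference from -11.89 (called, limma adjusted p = 0.00976, without WT replicate 5) to -2.19. The cause was not tested.

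Differences of 10 members turned sign when 1 library was left out, with log2 ranges of -0.69 to 2.22 for Ccne1, -0.26 to 1.296 for Mcm4, -0.012 to 1.28 for Cdc45, -0.10 to 2.07 for Pola1, -0.36 to 1.05 for Prim2, -0.11 to 1.75 for Pole, -0.18 to 1.92 for Rfc2, -6.56 to 0.13 for Fen1, -0.38 to 0.78 for Tyms and -0.83 to 0.98 for Clspn. Pole turned without knockout replicate 1, Prim2 and Clspn without that library or WT replicate 4, and the others without WT replicate 4.

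Quantile normalization moved the median of all genes from -0.093 to 0.16 log2, and the share of genes higher in knockout from 46.5% to 58.5%. Median centring moved that median to -0.23. Members above both WT libraries numbered 23 and 29 under these scalings. Signs turned under quantile normalization in Pola2 (-0.16), Prim2 (-0.16), Rrm2 (0.94) and Tyms (-0.20), and under median centring in Clspn (-0.062). With quantile normalization and no WT replicate 4, the median member difference was 0.28 and 6 members lay below WT. Turned signs there were those of Ccne1 (-0.73), Mcm4 (-0.27), Cdc45 (-0.032), Pola1 (-0.11), Prim2 (-0.38), Rfc2 (-0.22), Fen1 (0.14), Tyms (-0.39) and Clspn (-0.81). Median centring and no WT replicate 4 gave 0.40 and 5 members, and turned Ccne1 (-0.61), Mcm4 (-0.18), Pola1 (-0.022), Prim2 (-0.28), Rfc2 (-0.11), Fen1 (0.21), Rrm2 (0.030), Tyms (-0.30) and Clspn (-0.76). Limma called 0 genes in each of these scalings. Without a filter, with a filter of log2 5, with a pseudocount of 1 or with no mean-variance trend, all 43 members kept their direction and limma called 0 genes. With 2 libraries a group and no counts, small differences were not detectable here, and large ones could also go uncalled. Ybx1, the gene targeted, was not called at -7.04 log2 with all libraries (limma adjusted p = 0.826). A lack of calls therefore does not show that large differences were absent.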
